A study of Mus musculus with 6 samples.

Results

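The plasminogen activator system was examined in osteocyte-rich cortical bone through 9 genes chosen by name: *Plat* and *Plau*, the tissue and urokinase plasminogen activators; *Plaur*, the urokinase receptor; the serpins *Serpine2*, *Serpinf1* and *Serpinf2*; *Anxa2*, *S100a10* and *Lrp1*. All rows of the array table that carry one of these symbols were taken, which gave 15 of 45281 probes and 9 of 31508 gene symbols. The samples were bone tubes, the shafts of tibia and femur from C57BL6 mice of 3 months, stripped of marrow and surface cells by flushing and by collagenase and trypsin. Control tubes were untreated, and PTH tubes were exposed for 24 hours to PTH 1-34, the active fragment of parathyroid hormone, at 250 nM. Both had first been cultured overnight in medium with 10% serum. RNA was pooled from several mice, with 4 to 5 mice given per experiment and about 10 bones per preparation. From this, 3 control and 3 PTH preparations were each hybridized to an Illumina bead array. The labels do not say whether the preparations of a group came from separate mice, or whether control and PTH preparations shared mice. The p-values therefore measure only the spread between these arrays.

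Plasminogen is a circulating zymogen that the activators cut into plasmin, a protease that dissolves fibrin and degrades other matrix proteins. The tissue activator works mainly on fibrin and on cell surfaces, while urokinase is held on the cell by its receptor, and annexin A2 with its partner S100a10 forms a surface site for plasminogen and the tissue activator. Serpins trap the proteases, and Lrp1 takes the trapped complexes into the cell. Cells of the osteoblast lineage make both activators, and parathyroid hormone has been studied as a regulator of their activity in osteoblast cultures.

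*Plat* was higher with PTH, and it was the only 1 of the 9 genes to pass the test. For *Plaur* and *Anxa2* the lowest PTH array still exceeded the highest control array, but the differences were smaller and neither gene passed. *Plau*, *Serpine2*, *Serpinf1*, *S100a10* and *Lrp1* had overlapping groups by their brightest probe, and *Serpinf2* was not above background on any array. A probe was taken as above background when its detection p, which compares it with the negative controls of its array, was under 0.05, and it was tested when this held on at least 3 of the 6 arrays. This left 10 of the 15 probes and 8 of the 9 genes, and each of these 10 probes was above background on all 6 arrays. A gene was called at an adjusted p under 0.05 (limma, Benjamini-Hochberg over all 16214 probes tested) and a fold change of at least 1.5, by its brightest tested probe. So 1 of 8 genes was called higher with PTH, where 0.685% of all 11979 genes tested were, and none was called lower, where 1.04% were. At an unadjusted p under 0.05, 2 of the 8 were higher and 0 lower (limma), against 7.51% and 7.39% of all genes. By the mean alone 6 of the 8 were higher with PTH, against 50.8% of all genes, and 1 was at least 1.5-fold higher whatever its p, against 2.58%. The median log2 fold change of the 8 genes was 0.11, against 0.01 for all genes tested.

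The arrays were of similar quality. Between 15504 and 17374 probes were above background, and each pair of arrays correlated at between 0.975 and 0.985 over the probes tested, on the normalized log2 scale. PTH replicate 3 had the highest mean signal before normalization, 429 against 298 to 349 on the other arrays. Of 7 osteocyte markers 6 were tested, and 1 (*Mepe*) was called lower with PTH. The list went both ways, as *Pdpn*, a marker of early osteocytes, had a log2 fold change of 0.70 (limma adjusted p = 0.056) while the other 5 lay between -1.21 and -0.66. The summed normalized linear signal of the 6 was 8178 to 9459 in control and 6387 to 7706 with PTH. *Fgf23*, a hormone of mature osteocytes, was above background on no array. Markers of other cell types were also present, among them 2 of red cells, which summed to 8521 to 9978 in control and 2329 to 2606 with PTH and were both called lower. Their part in the results was not tested. The levels of other cell types are given below beside the genes they bear on, and because the samples are bulk bone, fewer cells of a type and less RNA per cell cannot be told apart.

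The cAMP response element and the AP-1 site, short regulatory sites, were searched for in the promoters of the 9 genes. Both are known to act downstream of cAMP or of growth signals. The RefSeq promoter table (build GRCm38.p6) matched 6 of the 9 genes, leaving *Plat*, *Plau* and *S100a10*. The 250 bases before the start of each gene were read on both strands. The cAMP response element (TGACGTCA) was found in 0 of the 6 windows and in 1.55% of the 32851 windows of the table, and its core (TGACG, which is also part of the full element) in 0 of the 6 and in 17.8% of all. The AP-1 site (TGANTCA) was found in 2 of the 6, those of *Plaur* and *Anxa2*, and in 6.75% of all windows. By their brightest probe these are also 2 of the 3 genes, of 8 tested, whose PTH arrays all lay above the control arrays. This held for 11.1% of all genes tested. Neither *Plaur* nor *Anxa2* passed the test, and *Plat*, the other of the 3, had no window. Whether the site bears on the change with PTH was not tested. The 2 windows with a match are shown 5′ to 3′ on the strand of the gene, with the AP-1 match in capitals. The *Plaur* window is chr7:24462233-24462482 on the plus strand, with the match beginning 69 bases before the start of the gene. The *Anxa2* window is chr9:69453433-69453682 on the plus strand, with the match beginning 95 bases before it. A match of letters is a description and does not show that a factor binds there.
Plaur: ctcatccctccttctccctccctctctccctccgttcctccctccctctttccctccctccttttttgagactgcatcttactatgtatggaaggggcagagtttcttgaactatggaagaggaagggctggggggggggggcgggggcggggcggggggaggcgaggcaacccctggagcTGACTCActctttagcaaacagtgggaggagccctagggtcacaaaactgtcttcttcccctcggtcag
Anxa2: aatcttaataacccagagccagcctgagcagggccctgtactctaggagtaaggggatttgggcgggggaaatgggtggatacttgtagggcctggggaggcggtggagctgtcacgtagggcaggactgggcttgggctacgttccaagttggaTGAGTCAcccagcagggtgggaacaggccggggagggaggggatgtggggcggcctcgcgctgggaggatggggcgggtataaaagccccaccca

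**Figure D1:**
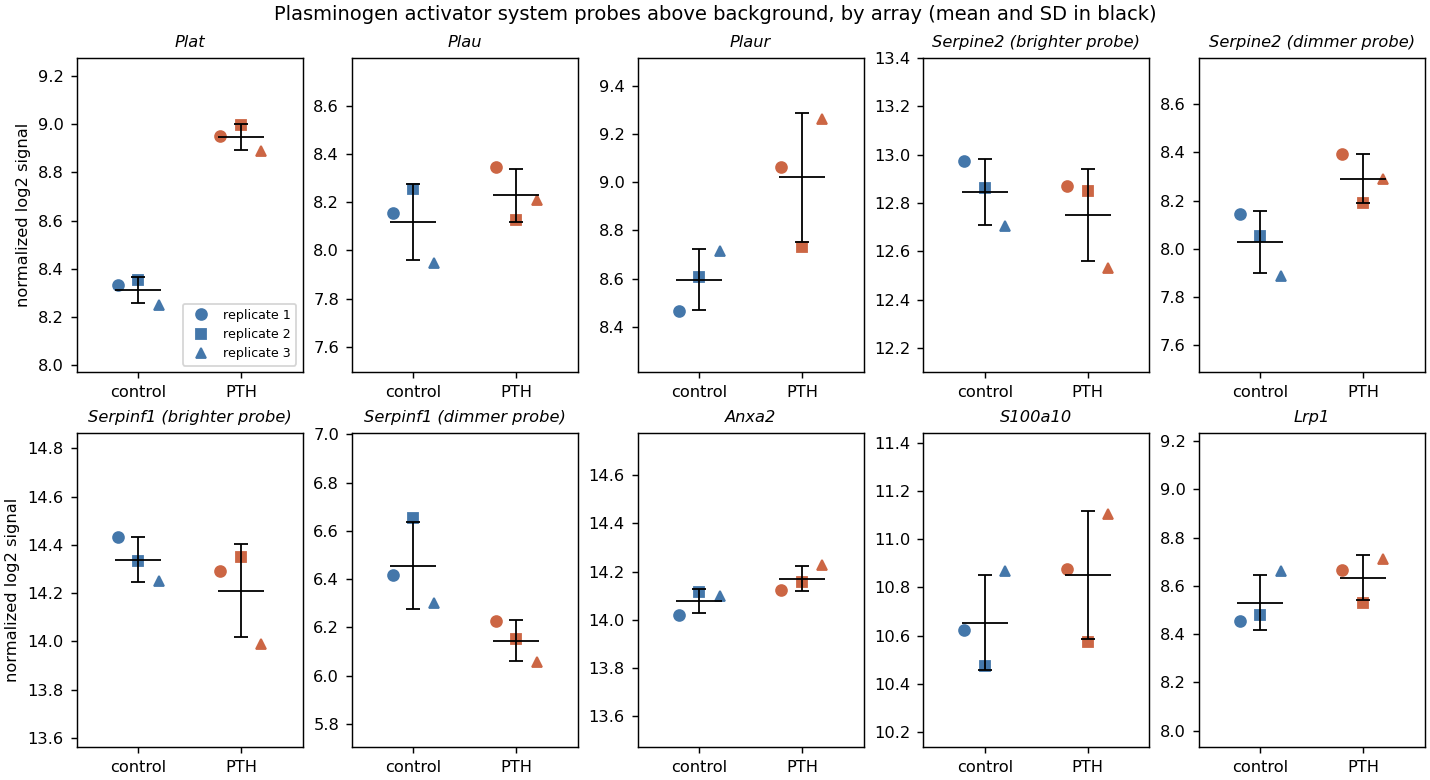
Normalized log2 signal of the 10 probes above background, for control and PTH arrays, with the mean and SD (n = 3) in black and a symbol for each replicate number. All panels span the same range of log2 units. The groups of *Plat* lie far apart, from 8.25 to 8.36 in control and from 8.89 to 8.997 with PTH, while most of the other panels overlap.

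Of the activators, *Plat* rose and *Plau* did not pass. The *Plat* probe (ILMN_2775937) read 8.33, 8.36 and 8.25 in control and 8.95, 8.997 and 8.89 with PTH, on the normalized log2 scale. The groups were well separated, with an SD of only 0.06 in control and 0.05 with PTH (n = 3 each). On the log2 scale the rise was 0.63 (SE 0.12, limma adjusted p = 0.0433), or 1.55-fold, with a 95% interval from 1.29-fold to 1.87-fold. In the signals as deposited the probe read 352, 425 and 395 in control and 489, 623 and 762 with PTH, so the rise was already there before normalization. The study's list of genes higher with PTH in both a cell line and these bone tubes holds *Plat* and *Plaur*, and as it was drawn in part from their rank on these same arrays, a place on it is not independent evidence of a direction here.

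The size of the change in *Plat* was steady and its call was not. Leaving out 1 array at a time kept the log2 fold change between 0.60 and 0.66, but the adjusted p (limma) then lay between 0.0943 and 0.143 and passed in 0 of 6 fits. Among 10 other ways of processing or testing all 6 arrays, the adjusted p was under 0.05 in 8 and ranged from 0.00133 to 0.28. The exceptions were scaling the arrays by their medians (log2 fold change 0.78, SE 0.29, limma adjusted p = 0.28) and a fit with the replicate number as a block (limma adjusted p = 0.0986). Median scaling moved the median of all genes by 0.12, and relative to that shift the log2 fold change of *Plat* was 0.67. Without background correction, and with a larger offset, *Plat* passed the p threshold but its fold change fell under 1.5, with log2 values of 0.51 and 0.58.

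**Figure D2:**
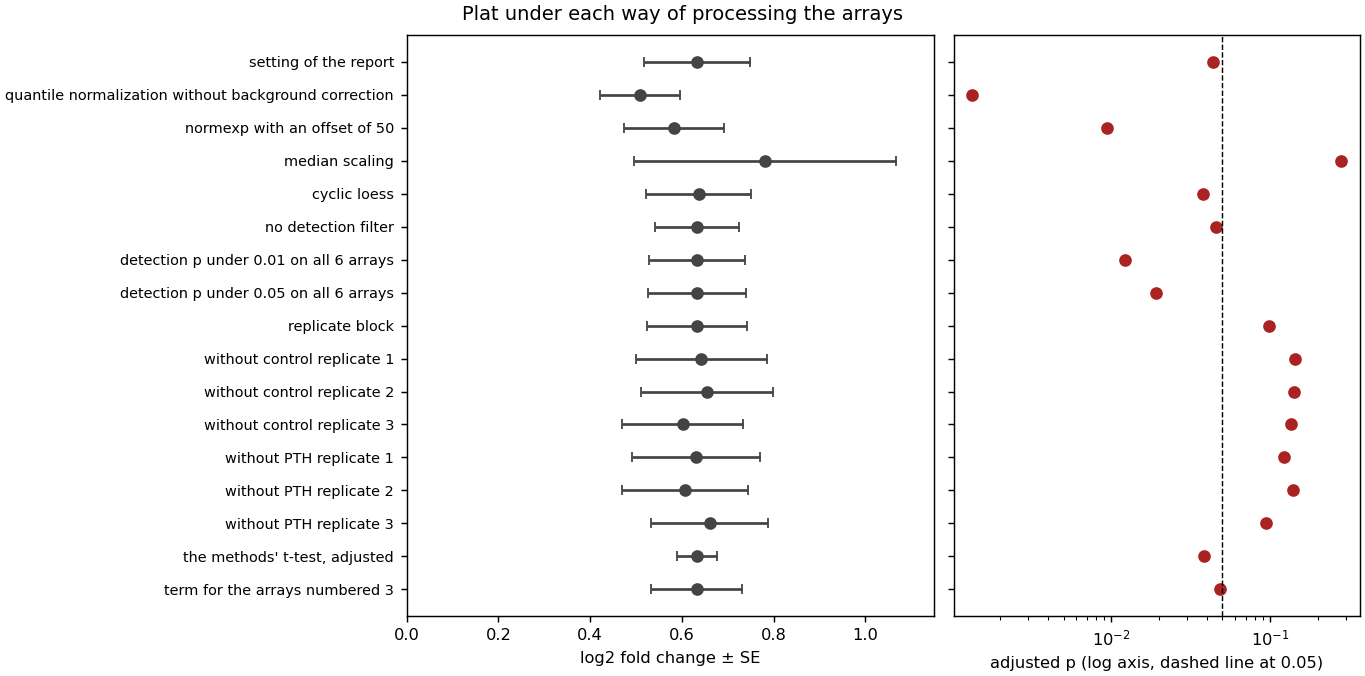
Log2 fold change of *Plat* with its SE (left) and its adjusted p on a log axis (right) under the processing of the report and each alternative. The fold change stays between 0.51 and 0.78 on the log2 scale while the adjusted p lies on both sides of 0.05, from 0.00133 to 0.28. The highest value, under median scaling, is 0.67 relative to the shift of all genes.

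*Plat* has 2 further probes, ILMN_1232110 and ILMN_3003008, and neither was above background on any array. Their lowest detection p was 0.152 and 0.163, so no change is given for them. The rise of *Plat* thus rests on a single probe. The 3 genes whose signal ran most like that of *Plat* over the 6 arrays were *Igsf10* (r = 0.997), F730003H07Rik (r = 0.997) and *Chic1* (r = 0.995), out of 11978 other genes. These genes share the same 6 arrays and the same split into groups, and were themselves higher with PTH, with log2 fold changes of 0.95, 0.77 and 0.62.

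Endothelial cells are a known source of tissue plasminogen activator. All 8 endothelial markers were tested, 0 were called (limma), and 5 of the 8 had a lower mean with PTH. Their summed normalized linear signal ran from 2284 to 2492 in control and from 2315 to 2438 with PTH, so the groups overlapped. Such a sum is carried mostly by the brightest markers of a list. Here these were *Emcn* and *Esam*, with log2 fold changes of 0.07 and 0.14, while the median of the 8 was -0.20. The part of endothelial cells in the signal of *Plat* was not tested. *Vwf*, a clotting protein of endothelium, differed by -0.45 on the log2 scale between the groups (SE 0.14), which did not pass (limma adjusted p = 0.177).

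*Plau* (ILMN_2629582) had normalized log2 signals of 8.15, 8.25 and 7.95 in control and 8.35, 8.13 and 8.21 with PTH. The groups overlapped, since PTH replicate 2 was below control replicates 1 and 2. The log2 fold change was 0.11, with a 95% interval from -0.21 to 0.43 (limma adjusted p = 0.775), which still includes a change of 1.34-fold upward. Whether the change of *Plau* differs from that of *Plat* was not tested.

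*Plaur* (ILMN_2590884) read 8.47, 8.61 and 8.71 in control and 9.06, 8.73 and 9.26 with PTH. The groups did not overlap, but PTH replicate 2 cleared the highest control array by very little and the PTH arrays were widely spread (SD 0.27, against 0.13 in control, n = 3 each). On the log2 scale the difference was 0.42 (SE 0.16, limma adjusted p = 0.288), or 1.34-fold, with a 95% interval from 1.03-fold to 1.75-fold. It lay between 0.35 and 0.57 over the other settings with all arrays and between 0.30 and 0.57 with an array left out, and never passed. The receptor is also made by neutrophils, macrophages and osteoclasts, whose markers moved in both directions. The neutrophil and myeloid markers summed to 19146 to 20462 in control and 11341 to 11785 with PTH, with 6 of 7 tested called lower. The 8 macrophage markers summed to between 7541 and 7634 in control and between 6073 and 6133 with PTH, with 0 called. They were not uniform, as 7 had a lower mean with PTH and 1, *Cd14*, a higher one (log2 fold change 0.39). Among the 7, *Cd68* and *Csf1r* were close to no change, at -0.02 and -0.04. The osteoclast markers summed to 11804 to 13257 in control and 15950 to 20432 with PTH, and all 4 tested had a higher mean with PTH. Of these *Acp5* and *Mmp9* were called, *Dcstamp* was 2.12-fold higher without passing (limma adjusted p = 0.0742), and the other 3 on the list, *Calcr*, *Ocstamp* and *Atp6v0d2*, were above background on no array. The part of these cells in the signal of *Plaur* was not tested.

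**Figure D3:**
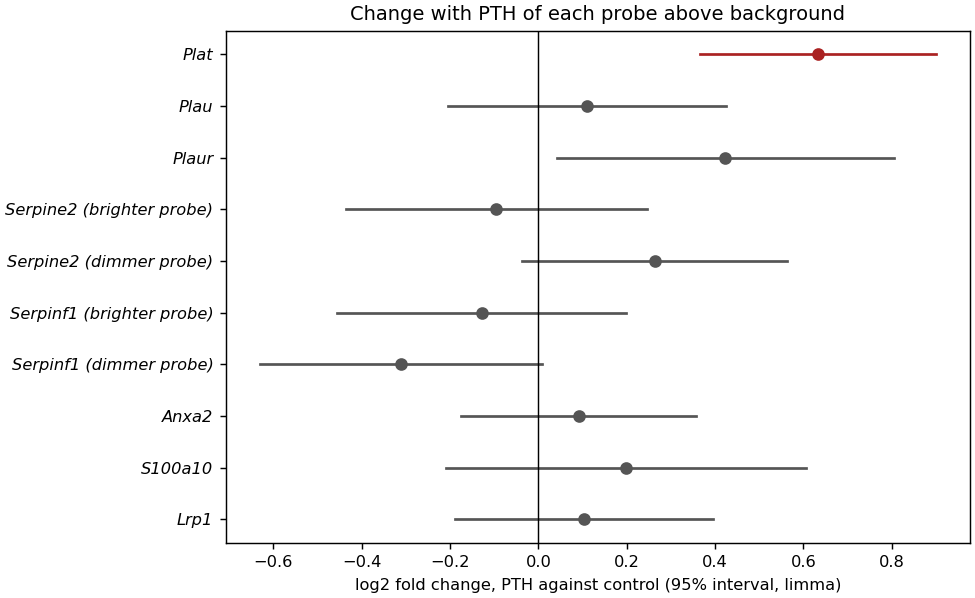
Log2 fold change of PTH against control with its 95% interval (limma) for the 10 probes above background. Only the interval of *Plat* (red) belongs to an adjusted p under 0.05. The intervals of *Plat* and *Plaur* lie above 0, the probes of *Serpine2* lie on opposite sides of 0, and both of *Serpinf1* lie below it.

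Among the serpins, no gene was called, and *Serpine2* gave different pictures by probe. *Serpine2*, or protease nexin, inhibits thrombin and both plasminogen activators and is secreted into the matrix. Its brighter probe (ILMN_1246808) read 12.97, 12.86 and 12.70 in control and 12.87, 12.85 and 12.53 with PTH. These groups overlapped, with the lowest value of each on its replicate 3 and a log2 fold change of -0.10 (95% interval -0.44 to 0.25, limma adjusted p = 0.829). The dimmer probe (ILMN_2883164) read 8.14, 8.05 and 7.89 in control and 8.39, 8.19 and 8.29 with PTH, so that its groups did not overlap and PTH was the higher. Its log2 fold change was 0.26 (95% interval -0.04 to 0.56, limma adjusted p = 0.407). The direction of the brighter probe also depended on a single array, since its log2 fold change was 0.0151 without PTH replicate 3. Under median scaling it was 0.0756, but this scaling moved the median of all genes by 0.12, and relative to that shift the value was -0.04, below 0 as before. Neither a rise nor a fall of *Serpine2* can be stated from these arrays.

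*Serpinf1*, or pigment epithelium-derived factor, is a serpin without protease inhibiting activity that osteoblast lineage cells secrete in large amounts and that is needed for normal bone mineral. Both of its probes had a lower mean with PTH. The brighter one (ILMN_2639239) read 14.43, 14.33 and 14.25 in control and 14.29, 14.35 and 13.99 with PTH, with overlapping groups and a log2 fold change of -0.13 (95% interval -0.46 to 0.20, limma adjusted p = 0.74). The dimmer one (ILMN_1257789) read 6.42, 6.65 and 6.30 in control and 6.23, 6.15 and 6.06 with PTH. Here the groups did not overlap, with PTH the lower, and the log2 fold change was -0.31 (95% interval -0.63 to 0.01, limma adjusted p = 0.356). Of 7 osteoblast markers, which the same cells express, 5 were tested, and 2 of these (*Ibsp* and *Sp7*) were called lower with PTH. The median log2 fold change of the 5 was -0.54. They were not uniform, as *Col1a2* stood at 0.01 (limma adjusted p = 0.971).

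*Serpinf2*, the antiplasmin of blood plasma, is made mainly in liver. It has 3 probes (ILMN_3001827, ILMN_3001824 and ILMN_2769089), and the lowest detection p among all their readings was 0.199. Its signals as deposited, from 90.1 to 126, lay in the range of the background, so no level or change is given. *Serpinf1* and *Serpinf2* are close together on chromosome 11, with 0 protein-coding genes between them, yet only *Serpinf1* was above background in the bone tubes.

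The partners that hold plasminogen at the cell surface, *Anxa2* and *S100a10*, both had a slightly higher mean with PTH and did not pass. *Anxa2* (ILMN_2657175) read 14.02, 14.11 and 14.10 in control and 14.12, 14.16 and 14.23 with PTH. The groups did not overlap, but PTH replicate 1 and control replicate 2 nearly met. The log2 fold change was 0.09 (SE 0.11, limma adjusted p = 0.778), and its 95% interval, from 0.89-fold to 1.28-fold, leaves out a change of 1.5-fold in either direction.

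*S100a10* (ILMN_1256702) read 10.62, 10.47 and 10.87 in control and 10.88, 10.57 and 11.10 with PTH. Its groups overlapped, and the replicates numbered 3 were the highest of each group and those numbered 2 the lowest. The log2 fold change was 0.20 (95% interval -0.21 to 0.61, limma adjusted p = 0.675). It fell to 0.07 without PTH replicate 3 and reached 0.34 without PTH replicate 2.

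*Lrp1* (ILMN_1237723), the receptor that clears complexes of activators and serpins, read 8.45, 8.48 and 8.66 in control and 8.66, 8.53 and 8.71 with PTH. The groups overlapped, and the log2 fold change was 0.10 (95% interval -0.19 to 0.40, limma adjusted p = 0.769). By their brightest probes 3 of the 8 genes tested, *Plat*, *Plaur* and *Anxa2*, had groups that did not overlap, against 21.9% of all genes. In all 3 PTH was above, against 11.1% of all genes, and in 0 was it below, against 10.8%.

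The replicates numbered 3 lay on the same side of their group mean in both groups for several of these genes. Relative to its group mean, *S100a10* was 0.21 higher on control replicate 3 and 0.25 higher on PTH replicate 3 on the log2 scale, and *Plaur* 0.12 and 0.24 higher. In contrast *Serpine2* lay at -0.14 and -0.22 and *Serpinf1* at -0.09 and -0.22. The replicates numbered 3 were not always the farthest from the mean. PTH replicate 2 lay at -0.29 for *Plaur* and -0.28 for *S100a10*, and control replicate 1 at -0.13 for *Plaur* and 0.095 for *Serpinf1*. For *Plat* the deviations were small on all arrays, between -0.06 and 0.05. A term that sets the replicates numbered 3 apart, chosen after seeing the data, left the call of *Plat* in place (limma adjusted p = 0.0485). It gave no other call among these genes.

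The other genes of the system were taken from lists of 63 genes. On the array were 61, of which 37 were tested, and 0 were called in either direction (limma), against 1.73% of all genes. At an unadjusted p under 0.05, 2 were higher and 7 lower, where 7.51% and 7.39% of all genes were, and the median log2 fold change of the 37 was -0.14. The groups did not overlap with PTH above in 5 genes, or 13.5%, against 11.1% of all genes, and with PTH below in 8, or 21.6%, against 10.8%.

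**Figure D4:**
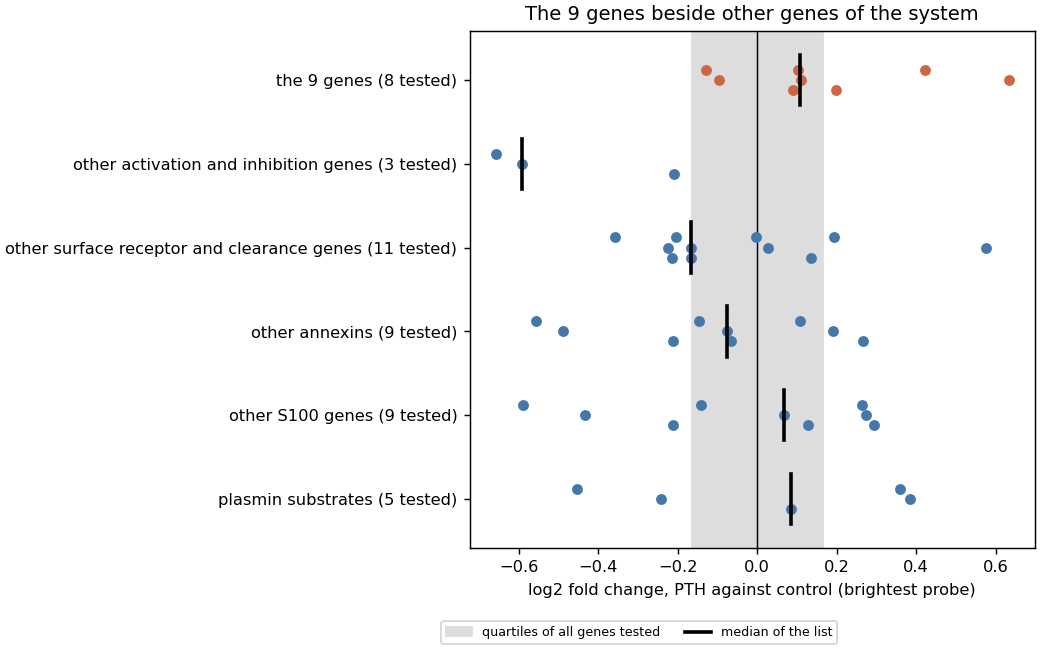
Log2 fold change of PTH against control, by the brightest probe, for the tested genes of the 9 (orange) and of the 5 lists of related genes (blue), with the median of each list as a black bar and the quartiles of all genes tested in grey, from -0.16 to 0.17. The 3 tested genes of the activation and inhibition list all lie below 0, with a median of -0.59.

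Of 14 other genes of activation and inhibition, 3 were tested. All 3 are serpins, with a mean below that of control and a median log2 fold change of -0.59. *Serping1*, the inhibitor of complement and contact proteases, changed most in this list. Its normalized log2 signal was 9.17, 9.04 and 8.90 in control and 8.56, 8.22 and 8.35 with PTH. The groups did not overlap, but the log2 fold change of -0.66 (SE 0.14) did not pass (limma adjusted p = 0.0761). *Serpinb2*, an inhibitor of urokinase made by macrophages, stood at 10.57 ± 0.25 in control and 9.98 ± 0.15 with PTH (SD, n = 3). The difference of -0.59 on the log2 scale (SE 0.16) did not pass (limma adjusted p = 0.147). *Plg*, plasminogen itself, was above background on at most 1 array of each group by any of its 4 probes. *Serpinb2* and *Plg* were singled out after their values were seen.

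Of 14 other receptors and clearance genes, 11 were tested, with a median log2 fold change of -0.17. The largest change was that of *Itgav*, the integrin alpha chain of vitronectin receptors, from 6.98 ± 0.18 to 7.56 ± 0.10 (SD, n = 3). Its groups did not overlap, and its log2 fold change of 0.58 (SE 0.14) did not pass (limma adjusted p = 0.106).

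The families of *Anxa2* and *S100a10* were mixed. Of 9 other annexins tested, 6 had a lower and 3 a higher mean with PTH, with a median of -0.08. The largest difference, that of *Anxa9* (-0.56, limma adjusted p = 0.402), came from a gene above background on 3 arrays. Of 9 other S100 genes tested, 4 had a lower and 5 a higher mean, with a median of 0.07. *S100a9*, a protein of neutrophils, was 13.29 ± 0.20 in control and 12.70 ± 0.20 with PTH (SD, n = 3). This difference of -0.59 on the log2 scale (SE 0.16) did not pass (limma adjusted p = 0.144), while 6 of the 7 neutrophil and myeloid markers tested were called lower. Their part in it was not tested.

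Of 9 substrates of plasmin, 5 were tested, with a median of 0.09. The largest difference was that of *Vwf*, given above. The fibrinogen chains *Fga*, *Fgb* and *Fgg* were not tested because none was above background on 3 arrays.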

How the data were processed

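The authors deposited the signal intensity of each probe on each array, neither normalized nor background subtracted, with a detection p-value from GenomeStudio, the program named in the labels. Each of the 6 arrays was mapped to control or PTH by its label. Background was removed with neqc (limma 3.58.1 in R 4.3.3), which applies normexp using the detection p-values, an offset of 16, quantile normalization and log2. Groups were compared across all probes tested with lmFit and eBayes. This procedure was tried on simulated arrays with independent noise and with changes larger than that of *Plat*. The simulation therefore does not bear on changes as small as that of *Plat* or on deviations that arrays share. Precision is limited by having only 3 arrays a group. Symbols are those of the array, and 2 of the related genes were matched through older names in RefSeq (GRCm38.p6). Several cell type markers were matched in the same way, among them *Pdpn*, *Ocstamp* and *Dcstamp*. Probe sequences were not used here, so transcripts of similar genes cannot be told apart. Named genes were all 9 genes by every probe, the called genes and the largest change of each list, and the 3 genes most like *Plat*. The genes, lists and tests were chosen with earlier results of these data known. Alternatives were no background correction, an offset of 50, median scaling, cyclic loess, 3 detection filters, a replicate block, the omission of each array in turn (values not normalized anew), a term for the replicates numbered 3 (chosen after seeing the data), the methods' t-test, other thresholds and any probe of a gene.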

Additional observations from a re-analysis of the deposited data

How the results depend on the processing

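The count of called genes among the 9 was 1 higher and 0 lower. It became 0 higher without background correction, with an offset of 50, under median scaling and with the replicate block, and 0 in each fit that omitted an array (range 0 to 0), *Plat* being the gene lost each time. The labels do not say whether the replicate numbers pair the arrays. Deviations of same-numbered arrays correlated at 0.07, 0.06 and 0.27, against -0.14 to 0.07 for other pairs, with only the arrays numbered 3 above the rest. Within a group the deviation of each array is fixed by those of the others. These values therefore depend on each other and cannot settle whether the arrays are paired. The methods name no pairing, and the arrays were treated as unpaired. The block lowered the calls over all genes from 207 to 44, and *Plat* had an adjusted p of 0.0986 under it (limma). Leaving out an array left 50 to 78 genes called over all genes, the methods' t-test called 68 after adjustment, and median scaling called 104, of which 63 were higher, against 82 of 207. Other counts over all genes more than 1.5 times apart were 367 at an adjusted p under 0.1 and 506 for the unadjusted t-test. The related genes called lower went from 0 to 2 with an offset of 50 (*Serping1* and *S100a9*), to 1 with detection on all 6 arrays at either limit and at an adjusted p under 0.1 (*Serping1*), and to 3 under the unadjusted t-test, while those called higher stayed at 0. Of 136 values of the 8 genes under these settings, 126 kept their sign and their side of the p threshold. The fold change minimum was not part of this tally. *Plat* without background correction and with an offset of 50 is therefore among the 126, although its call was lost there. Another 8 (all of *Plat*) no longer passed the p threshold, and 2 changed sign, both of *Serpine2*. Its value was 0.0756 under median scaling, which is -0.04 relative to the shift of all genes and so no change of direction among them, and over the omitted arrays it ran from -0.17 without control replicate 3 to 0.0151 without PTH replicate 3. The cause was not tested. Depth on these arrays is signal over background, which limits *Serpinf2* and 2 probes of *Plat*.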
